A study of Homo sapiens with 4 samples.

Results

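The zinc finger genes described here are the protein-coding genes of human chromosome 19 (GRCh38) whose symbol is ZNF followed by digits and an optional letter. GENCODE lists 247 of them, of which 232 are in the deposited table of 27106 genes and 225 had a mean normalized read count of at least 10 and were tested. The rule for members uses name and chromosome and not their values, but it was chosen with earlier results of these data known. The RNA came from THP-1, an established human monocytic line derived from acute myeloid leukaemia, at day 5 of treatment with an antisense oligonucleotide (ASO), a synthetic strand that binds a chosen RNA and leads to its loss. The ASO was non-targeting in 2 libraries and aimed at SGOL1-AS1, a long noncoding RNA, in the other 2, called the knockdown libraries here, and no other genotype or agent is labelled. The targeting ASO is a single labelled agent, so what it does through SGOL1-AS1 and what it does otherwise cannot be told apart. All libraries come from 1 cell line, and the labels do not say that they came from separate cultures, so the p-values may measure technical spread only.

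Zinc finger proteins of this family bind DNA through a row of C2H2 fingers, each a small fold held by a zinc ion. Many carry a KRAB domain at the amino end, which recruits TRIM28 (KAP1). TRIM28 in turn brings in the histone H3 lysine 9 methyltransferase SETDB1 and the heterochromatin proteins of the CBX group. KRAB zinc finger proteins are best known for silencing transposable elements, and their genes lie in tandem clusters on chromosome 19 that grew by duplication.

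The libraries held 41435922 to 51851314 gene reads, and no library was a copy of another. The column names of the knockdown libraries hold an unexplained code, so they were assigned by elimination, and all directions below depend on this assignment. The target itself, SGO1-AS1, was low, at 23.0 and 19.8 normalized reads under the non-targeting ASO and 11.5 and 19.4 under knockdown. Its log2 fold change of -0.48 came mainly from knockdown library 1. The difference did not pass the test (limma, adjusted p = 0.555), so the target does not check the labels. Every gene in the table has at least 2 reads in knockdown library 1, so a gene lost from that library is not analysed here. Over all genes tested, 10179 of 19398 had a log2 fold change below 0. All 10 monocytic markers examined were measured, with a median log2 fold change of -0.11 and 8 of 10 below 0. Of these, 4 had an unadjusted p under 0.05 by limma, against 17.2% of all genes, and 1, FCGR1A, was called lower (log2 fold change -0.37, limma adjusted p = 0.00118), against 3.4% of all genes. Their mean normalized counts ran from 17.8 for CD68 and 104 for CD14 to 38539 for LYZ. Of the other lists, 3 of the 4 T cell markers and 4 of the 5 erythroid and megakaryocyte markers are not in the table. Of the B cell markers 3 of 4 were measured, and PAX5, a B cell factor, was called lower, at 4666 and 4624 normalized reads under the non-targeting ASO and 2786 and 3455 under knockdown. Of 5 epithelial and fibroblast markers 4 were in the table and 0 were called. Their means were 180.5 for COL1A1, 122.9 for KRT8, 102 for PDGFRB and 6.77 for KRT18. Presence in the table alone therefore does not tell these cell types apart. The part of these markers in the results below was not tested.

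A C2H2 finger pattern was counted in the longest coding sequence of each gene, and the 247 genes held 0 to 36 fingers. A KRAB pattern was found in 205 of them. The members share long stretches of coding sequence. The 18-base stretch found in the coding sequences of the largest number of members is printed here, as a measure of how alike the genes of the family are.
Shared coding stretch: TCATACTGGAGAGAAACC
It occurred in 97 of the 247 members (39.3%), with 381 copies in all and up to 18 in 1 gene, and in 44 of 261 ZNF genes on other chromosomes (16.9%). The stretch was chosen for its count in the members, so a comparison of these shares favours the members. Reads from such stretches can belong to several genes. In 24 members at least 20% of the 50-base stretches of the longest transcript also occurred in a transcript of another gene, and the exons of 78 members overlap those of a gene on the opposite strand. The use of strand in counting is not stated in these sources.

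The upstream sequences of 4 neighbouring members, ZNF234, ZNF226, ZNF227 and ZNF235, are shown because all 4 stood higher in both knockdown libraries than in both non-targeting libraries (values below). Each is the 250 bases before the RefSeq start on the gene's strand (GRCh38.p14), at chr19:44141304-44141553 (plus strand), chr19:44164850-44165099 (plus), chr19:44212282-44212531 (plus) and chr19:44305026-44305275 (minus). Capitals mark matches on either strand to the CCAAT box (CCAAT), the GC box (GGGCGG) or the ETS factor motif (CCGGAAG), and matches to different motifs may overlap. The ZNF227 window lies inside the GENCODE gene model, which starts further upstream.
ZNF234: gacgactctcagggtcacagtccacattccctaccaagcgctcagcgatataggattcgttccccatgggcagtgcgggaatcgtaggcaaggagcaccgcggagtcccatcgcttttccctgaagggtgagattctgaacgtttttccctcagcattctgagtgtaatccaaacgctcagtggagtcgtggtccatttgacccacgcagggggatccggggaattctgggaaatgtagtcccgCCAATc
ZNF226: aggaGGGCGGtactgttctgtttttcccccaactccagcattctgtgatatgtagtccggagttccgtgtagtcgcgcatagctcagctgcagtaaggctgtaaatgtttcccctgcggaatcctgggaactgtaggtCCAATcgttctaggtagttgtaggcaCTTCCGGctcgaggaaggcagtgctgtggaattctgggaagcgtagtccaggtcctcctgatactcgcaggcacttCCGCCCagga
ZNF227: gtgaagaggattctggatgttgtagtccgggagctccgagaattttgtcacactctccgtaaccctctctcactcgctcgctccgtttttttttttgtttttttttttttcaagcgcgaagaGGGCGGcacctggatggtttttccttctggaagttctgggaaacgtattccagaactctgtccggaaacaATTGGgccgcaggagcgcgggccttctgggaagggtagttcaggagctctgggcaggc
ZNF235: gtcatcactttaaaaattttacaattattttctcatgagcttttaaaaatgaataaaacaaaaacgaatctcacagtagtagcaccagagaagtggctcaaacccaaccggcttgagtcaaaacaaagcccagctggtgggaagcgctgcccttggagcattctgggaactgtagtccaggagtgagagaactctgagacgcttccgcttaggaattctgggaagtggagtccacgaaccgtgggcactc
ZNF226 held all 3 of these motifs, ZNF227 held a GC box and a CCAAT box, ZNF234 held a CCAAT box, and ZNF235 held none of the 3 in this window. Among the 216 of 247 members with a RefSeq entry the ETS motif was present in 31.9%, against 11.9% of 15317 coding genes, 11.4% of 946 other coding genes of chromosome 19 and 27.7% of 213 ZNF genes on other chromosomes. The CCAAT box was present in 50.9% of the members and 34.8% of coding genes, and a TATA box (TATAAA) in 1.85% and 9.19%. The GC box was present in 64.8% and 56.7%, and the median GC content of the windows was 59.6% and 62.4%. The core of the NRF1 motif (GCGCATGC) was found in 3.70% of members and 3.71% of coding genes, and the YY1 motif (AAGATGGC) in 4.17% and 1.37%. A match is a run of letters and not a site. Members with and without the ETS motif had median log2 fold changes of 0.02 and 0.05, and members with and without the CCAAT box 0.05 and 0.04.

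Most members were expressed in THP-1 cells. Among the tested members the median normalized read count per kilobase of exon was 124, against 170.6 for ZNF genes on other chromosomes and 292 for the other coding genes of chromosome 19. ZNF146, which is made almost wholly of fingers, had the highest level per length, at 1745 normalized reads per kilobase. It was followed by ZNF460 (1233), ZNF121 (1078), ZNF787 (864) and ZNF317 (726). Elsewhere the most abundant gene of a cluster was lower per length, at 75.9 normalized reads per kilobase for ZNF556, 170 for ZNF302, 428 for ZNF627, 442 for ZNF480 and 447 for ZNF45. ZNF146 stood at 7013 and 7452 normalized reads under the non-targeting ASO and 7081 and 7396 under knockdown, so its groups overlapped. ZNF121 stood at 7447 and 7954 against 7671 and 8183, which also overlapped. The members together took 0.398% and 0.408% of the reads under the non-targeting ASO and 0.423% and 0.427% under knockdown. Their summed normalized reads overlapped, at 194215 and 198969 against 196768 and 201863, while the sum over all tested genes was lower under knockdown. The share of ZNF genes on other chromosomes was also higher under knockdown, at 0.755% and 0.751% against 0.771% and 0.770%. The 7 members in the table that were too low to test, ZNF177, ZNF625, ZNF85, ZNF781, ZNF534, ZNF415 and ZNF835, had 0 to 11 reads in a library. The other 15, among them ZNF208, ZNF676 and ZNF780A, are not analysed here.

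The study's comparison asks which genes differ when the ASO is aimed at SGOL1-AS1. No chromosome 19 ZNF gene passed the test. Of 225 tested members, 0 were called lower and 0 higher by limma (adjusted p under 0.05), while over all 19398 genes tested 4.25% were called, 3.4% lower and 0.851% higher. Those all-gene calls were 660 lower and 165 higher, 650 and 291 with the same median in every library, 334 and 142 after quantile normalization and 293 and 235 with the same total. At an unadjusted p under 0.05 limma had 19 of the 225 members (8.44%), 6 lower and 13 higher, against 17.2% of all genes, 11% lower and 6.17% higher. The edgeR test on whole reads called 0 members against 3.69% of all genes, with 20 members at an unadjusted p under 0.05 (16.8% of all genes). DESeq2 called 0 members against 2.3% of all genes, with 7 at an unadjusted p under 0.05 (8.77%). In 200 of 225 members the 95% interval of the fold change lay within 1.5-fold in either direction, and in 220 within 2-fold. The counts were 11002 and 12472 of the 13283 coding genes tested, and 12619 and 16432 of all 19398 genes. These intervals use the spread of the same limma fit and, like the p-values, may reflect technical spread only. In simulated data 82 of 100 genes that had been changed 1.5-fold were recovered by limma, all drawn from genes with a mean of at least 50. Those counts had a spread set by the mean count alone and no shift between libraries, so this rate need not hold for the real libraries.

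The median of the members lay slightly above that of the rest of the table. Their median log2 fold change was 0.04 (interquartile range -0.03 to 0.11), with 142 above 0 (63.1%) and 83 below. Of all genes tested 47.5% were above 0. Of all coding genes tested 40.4% were above 0, with a median of -0.03. The median was 0.01 for the 227 tested ZNF genes on other chromosomes, of which 5 were called lower and 1 higher. It was -0.09 for the 777 other coding genes of chromosome 19, of which 49 were called lower and 3 higher, and -0.01 over all genes tested. These are descriptions without a test. In 70 members (31.1%) both knockdown libraries stood above both non-targeting libraries and in 22 (9.78%) both stood below, against 21.6% and 25.1% of all genes, of which 46.7% were apart in either direction. Deviations were taken from the mean of the 2 non-targeting libraries, so the non-targeting values here and below are equal and opposite by construction. The median deviation from the non-targeting mean was 0.02 in knockdown library 1 and 0.07 in knockdown library 2, and -0.02 and 0.02 in the 2 non-targeting libraries. Knockdown library 1 thus lay within the spread of the non-targeting libraries, and the median without knockdown library 1 was 0.07 and without knockdown library 2 was 0.02.

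**Figure D1:**
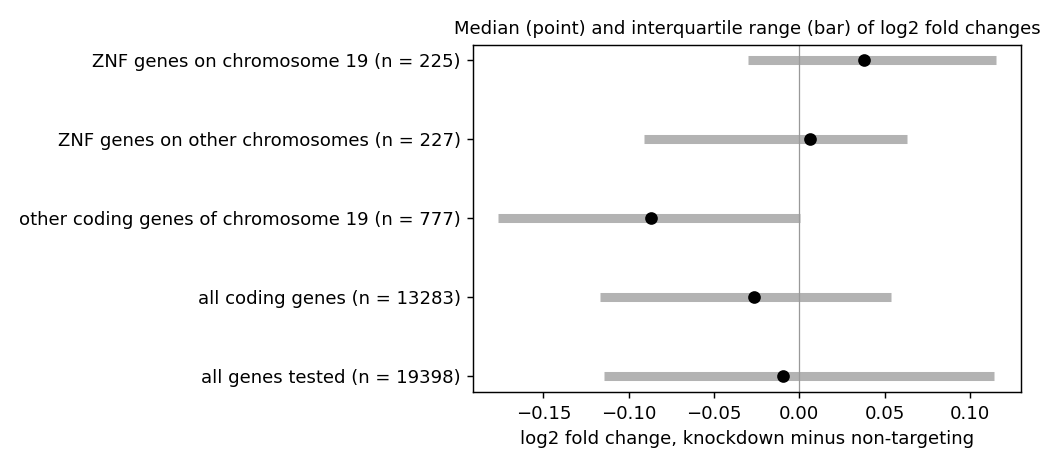
Median (point) and interquartile range (bar) of the log2 fold change, knockdown minus non-targeting, on the horizontal axis for 5 gene groups. The ZNF genes of chromosome 19 have a median of 0.04, and the other coding genes of the same chromosome -0.09.

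GC content differed between these groups, and its part in their different medians was not tested. The median GC content of the longest transcript was 42.4% for the tested members and 59.9% for the other coding genes of chromosome 19. After each library was corrected for GC content and exonic length, the median of the members was again 0.04. That of the other coding genes was 0.01, that of ZNF genes on other chromosomes 0.01 and that of all genes tested -6.7e-05. Each was taken over the same genes as before. Within the family, the 24 tested members with a GC content of at least 55% had a median log2 fold change of -0.06, with 7 above 0. Their median deviation was 0.09 and -0.09 under the non-targeting ASO and 0.04 and -0.16 under knockdown, so non-targeting library 2 and knockdown library 2 stood low together. The 158 members under 45% had a median of 0.04, with 106 above 0, and deviated by -0.03 and 0.03 under the non-targeting ASO and 0.01 and 0.09 under knockdown. Across the 225 members the log2 fold change and GC content had a Pearson r of -0.23 and a Spearman rho of -0.16. All points share the same 4 libraries.

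**Figure D2:**
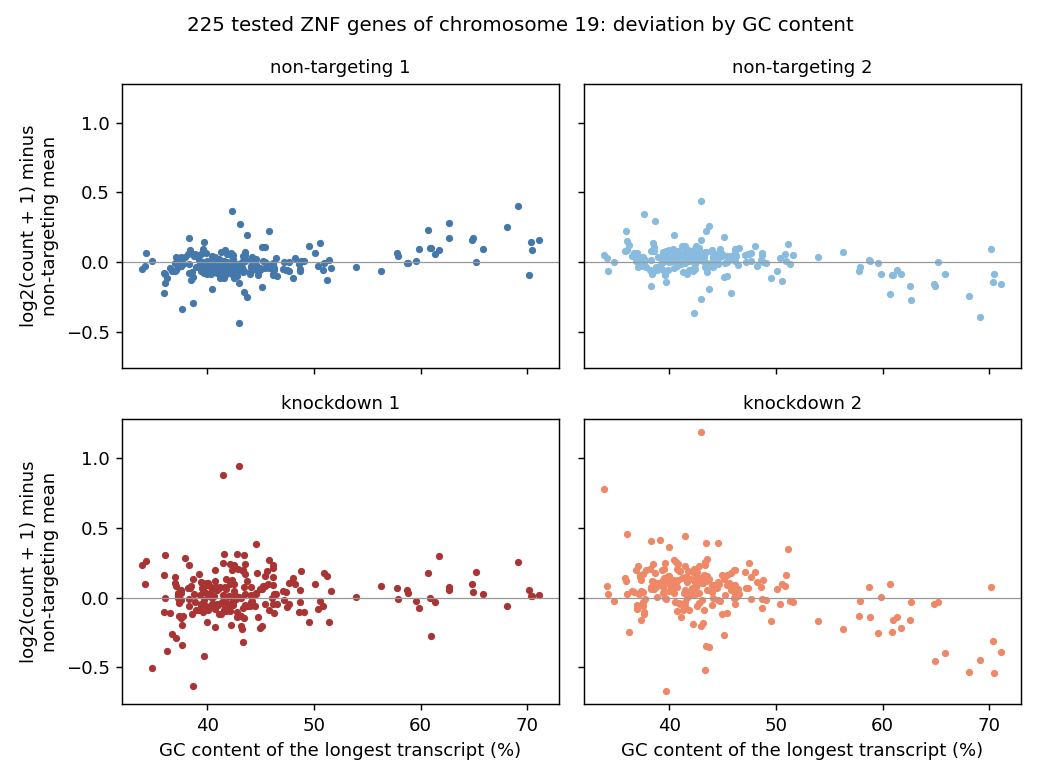
Each point is 1 of the 225 tested members, with the GC content of its longest transcript on the horizontal axis and log2(normalized count + 1) minus the non-targeting mean on the vertical axis, in 1 panel per library. Members with a GC content of at least 55% have a median of 0.09 in non-targeting library 1 and lie mostly below 0 in non-targeting library 2 and knockdown library 2. The panels of the non-targeting libraries mirror each other by construction.

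Along the chromosome the members form 11 clusters, runs of at least 3 genes with starts within 500 kb of the next, and 11 members lie outside them. Each cluster is named here by its first and last member. No member of any cluster was called by limma, and the medians are descriptions without a test. Median log2 fold changes were highest in the clusters ZNF653 to ZNF791 (0.12 over 24 tested genes) and ZNF554 to ZNF77 (0.12 over 5). In ZNF653 to ZNF791, 18 of 24 genes were above 0, and the cluster's median stood at -0.02 and 0.02 under the non-targeting ASO and 0.10 and 0.15 under knockdown, which did not overlap. The clusters ZNF302 to ZNF792 (0.09 over 5 genes), ZNF565 to ZNF573 (0.08 over 25), ZNF575 to ZNF180 (0.05 over 21), ZNF414 to ZNF846 (0.04 over 11) and ZNF175 to ZNF331 (0.04 over 37) followed. These values and their order depended on single libraries. With 1 library left out the median ran from 0.08 to 0.15 in ZNF653 to ZNF791, from 0.06 to 0.15 in ZNF554 to ZNF77, from -0.02 to 0.16 in ZNF302 to ZNF792, from 0.01 to 0.12 in ZNF565 to ZNF573, from 0.05 to 0.10 in ZNF575 to ZNF180, from -0.01 to 0.09 in ZNF414 to ZNF846 and from 0.01 to 0.11 in ZNF175 to ZNF331. Without non-targeting library 2, ZNF302 to ZNF792 (0.12) and ZNF565 to ZNF573 (0.10) stood above ZNF653 to ZNF791 (0.09). The library medians also did not overlap in ZNF554 to ZNF77 (-0.05 and 0.05 against 0.08 and 0.13), ZNF575 to ZNF180 (-0.01 and 0.01 against 0.05 and 0.10) and ZNF264 to ZNF446 (-0.02 and 0.02 against 0.03 and 0.06). In ZNF565 to ZNF573 the non-targeting medians were -0.04 and 0.04 and the knockdown medians 0.03 and 0.12, so these overlapped. Separation is common with so few libraries. Of all single genes tested, 46.7% were apart in either direction and 21.6% were apart and higher under knockdown. Whether the cluster medians separate more often than that was not tested.

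The largest cluster, ZNF264 to ZNF446 near the long-arm telomere, had a median of 0.01 over 42 genes, and 0.03 to 0.06 with 1 library left out. The pericentromeric cluster ZNF101 to ZNF254 had a median of 0.00 over 30 genes, with 15 above and 15 below 0. With all 4 libraries and no correction, ZNF628 to ZNF835 was the cluster with a median below 0, at -0.06 over 14 genes with 9 below 0. Other clusters were below 0 under some settings. The median of ZNF101 to ZNF254 was -0.06 without non-targeting library 1, -0.05 without knockdown library 2 and -0.02 after the GC and length correction. That of ZNF414 to ZNF846 was -0.01 without non-targeting library 1, and that of ZNF302 to ZNF792 was -0.02 without knockdown library 2. ZNF628 to ZNF835 is the GC-rich cluster, with a median GC content of 60.6%, and only 5 of its 16 annotated genes have the KRAB pattern. Its medians were 0.08 and -0.08 under the non-targeting ASO and 0.03 and -0.19 under knockdown, which overlapped. Relative to all genes its median was -0.19 without knockdown library 1, 0.05 without knockdown library 2 and 0.02 after the GC and length correction. The cluster ZNF546 to ZNF780A is not analysed here. Neighbouring tested members of a cluster had log2 fold changes that were weakly alike (Pearson r 0.12, Spearman rho 0.18 over 204 neighbour pairs, which share libraries and sequence).

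**Figure D3:**
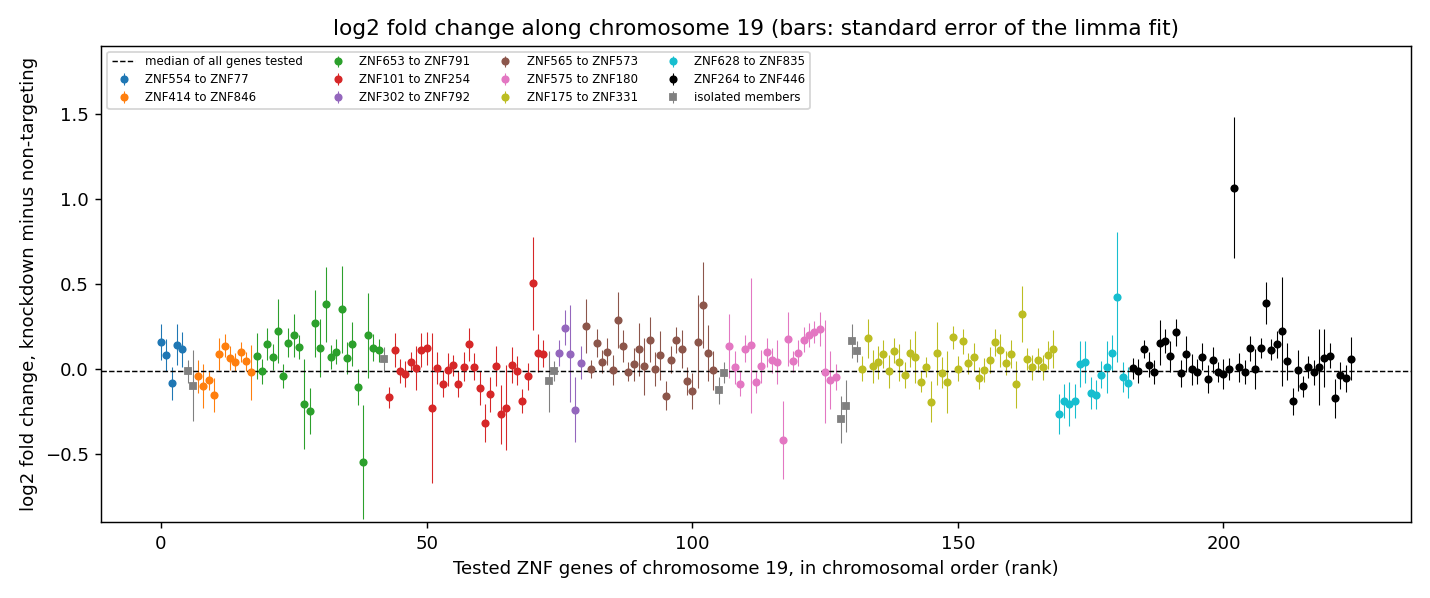
Log2 fold change (points; bars are the standard error of the limma fit) of the 225 tested members in chromosomal order, coloured by cluster, with the median of all genes tested as a dashed line. The middle of the distribution runs from -0.03 to 0.11, and the point above 1 is ZNF154.

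**Figure D4:**
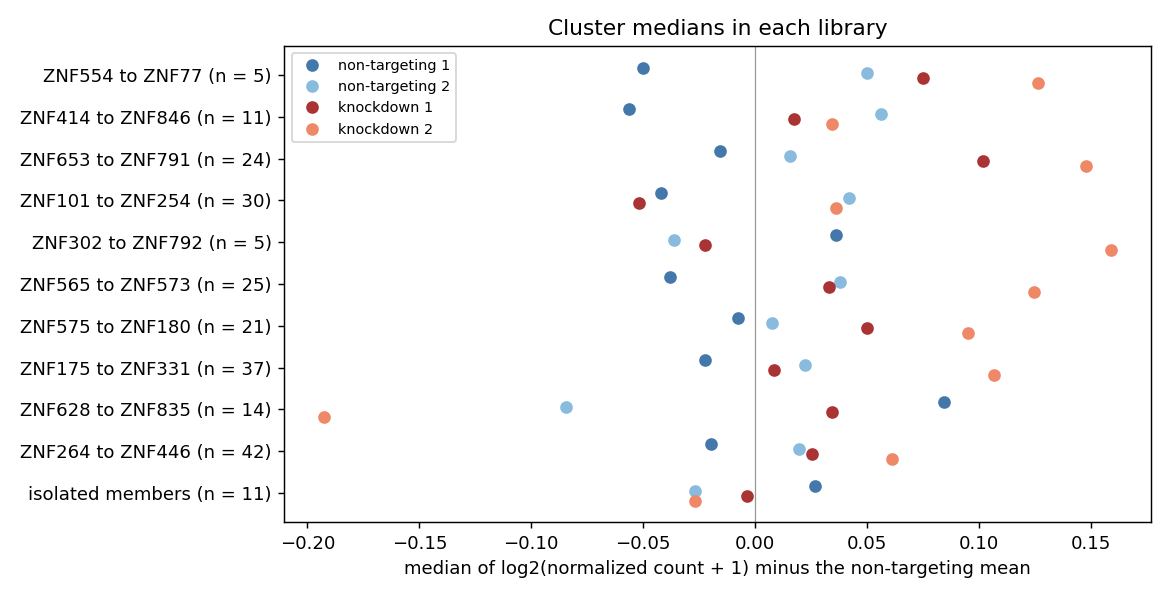
Median deviation of each cluster's tested members from the non-targeting mean, on the log2(normalized count + 1) scale, in each of the 4 libraries. The knockdown libraries stand above both non-targeting ones in ZNF554 to ZNF77, ZNF653 to ZNF791, ZNF575 to ZNF180 and ZNF264 to ZNF446, and overlap them in the other clusters with tested genes. Of all single genes tested, 21.6% were apart and higher under knockdown.

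Among single members the smallest p belonged to ZNF227, a KRAB gene with 18 fingers (chromosome 19, 44207547 to 44237268, plus strand), named after its value was seen. ZNF227 stood at 1622 and 1537 normalized reads under the non-targeting ASO and 1807 and 1862 under knockdown. The groups did not overlap, and the log2 fold change was 0.22 ± 0.06 (SE), with a 95% interval of 0.08 to 0.35. It missed the threshold by limma (adjusted p = 0.0581) and by edgeR (0.051). ZNF227 was called higher with the same median in every library (adjusted p = 0.0324), quantile normalization (0.0482), the same total (0.0273), robust empirical Bayes (0.0372) and the GC and length correction (0.0339), and without knockdown library 1 (0.0405), all by limma. It was not called by DESeq2 (adjusted p = 0.124), without the variance trend (0.390), or by limma after leaving out knockdown library 2 (0.125) or either library of the non-targeting ASO (0.155 and 0.396).

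Genes near it that stood the same way are described next, and were picked for that direction. ZNF226, upstream of ZNF227 on the same strand and named after its values were seen, had 1188 and 1283 normalized reads against 1416 and 1421. ZNF234, the next member on that side and also named after its values were seen, had 884 and 964 against 1064 and 1021. ZNF235, on the minus strand and overlapping exons of ZNF227, had 325 and 335 against 391 and 385. None of their groups overlapped, which the choice of these genes had fixed. In their cluster, ZNF575 to ZNF180, 9 of 21 tested genes (42.9%) were apart and higher under knockdown and 1 apart and lower. Over all genes the shares were 21.6% and 25.1%. The log2 fold changes were 0.20 for ZNF226, 0.17 for ZNF234 and 0.24 for ZNF235, with limma adjusted p of 0.111, 0.228 and 0.225, so none passed. ZNF226 and ZNF234 share under 2% of their 50-base stretches with other genes, and ZNF227 and ZNF235 share none. In the same cluster ZNF223 stood the other way, at 57.6 and 57.4 against 46.0 and 39.9 (log2 fold change -0.42, limma adjusted p = 0.374), and 61.9% of its stretches occur in an overlapping gene model.

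ZNF814, a KRAB gene with 23 fingers near the long-arm end (57848731 to 57889074, minus strand), had the largest positive difference among members with a mean of at least 50 and groups that do not overlap. It stood at 192 and 187 normalized reads under the non-targeting ASO and 247 and 249.8 under knockdown. The log2 fold change was 0.39 ± 0.12 (SE), an interval of 0.13 to 0.64, with a limma adjusted p of 0.0795. Over the alternatives the adjusted p ran from 0.0492, by limma with the same median in every library, to 0.317 by DESeq2. It shares 27.4% of its stretches with other genes, 13.8% with ZNF587B, so its reads are uncertain. The other 7 of the 8 largest positive differences were those of ZNF20, ZNF677, ZNF461, ZNF878, ZNF565, ZNF181 and ZNF235. Their log2 fold changes ran from 0.24 to 0.38 and limma adjusted p from 0.220 to 0.534. ZNF20 stood at 45.1 and 51.7 normalized reads against 60.4 and 66.1, and shares 71.9% of its stretches with the readthrough gene ZNF625-ZNF20. ZNF181 stood at 325 and 309 against 386 and 364. ZNF565 stood at 108 and 129 against 131 and 150.5, and overlaps exons of ZNF146 on the opposite strand.

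The 8 largest negative differences were those of ZNF223, ZNF257, ZNF99, ZNF433, ZNF30, ZNF541, ZNF610 and ZNF606, with log2 fold changes from -0.42 to -0.19 and limma adjusted p from 0.126 to 0.578. ZNF257, a pericentromeric KRAB gene (22052452 to 22091480, plus strand), stood at 343 and 405 normalized reads under the non-targeting ASO and 286 and 314 under knockdown. Its log2 fold change was -0.31 ± 0.11 (SE), an interval of -0.55 to -0.08 (limma, adjusted p = 0.126). It was called lower without knockdown library 2 (limma, adjusted p = 0.0486), the lowest of its alternatives, and the highest was 0.670 without non-targeting library 2. ZNF606 stood at 708 and 715 against 619 and 628. ZNF99 stood at 132 and 131 against 92.1 and 129, so the groups were separated mainly by knockdown library 1.

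**Figure D5:**
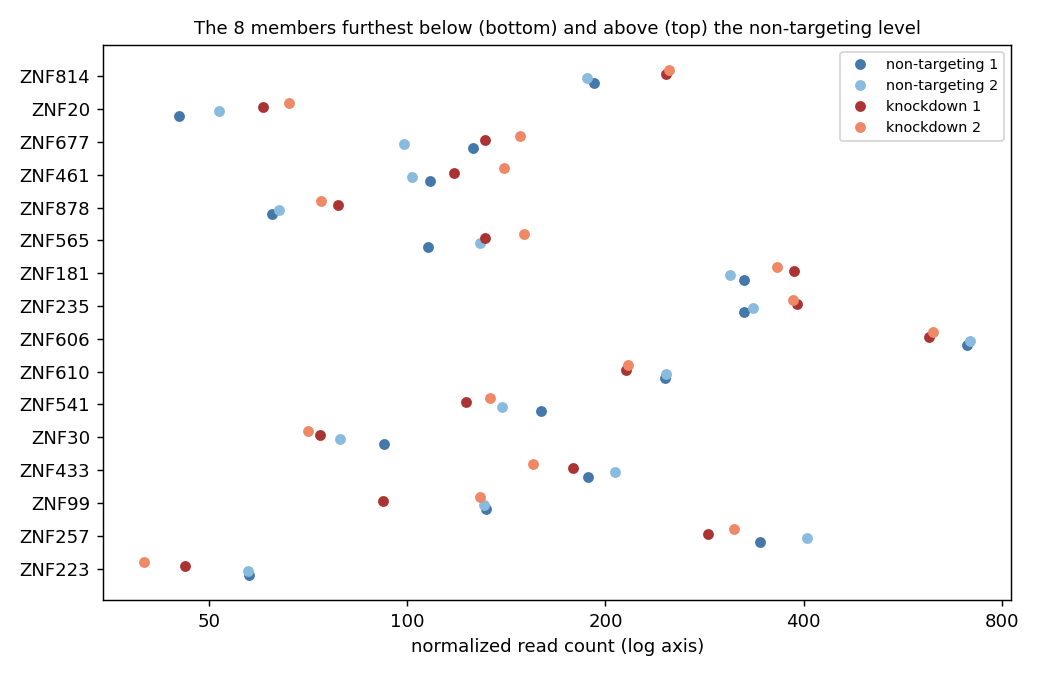
Normalized read count (log axis) in each of the 4 libraries for the 8 members with the largest positive (top) and the 8 with the largest negative difference (bottom) among those with a mean of at least 50 and no overlap between groups. ZNF814 is at 187 and 192 under the non-targeting ASO and 247 and 249.8 under knockdown.

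ZNF91 and ZNF101 are abundant members of the pericentromeric cluster. ZNF91, a 31-finger protein known for repressing SVA retrotransposons and named after its values were seen, stood at 2143 and 2328 normalized reads under the non-targeting ASO and 1825 and 2116 under knockdown. Its log2 fold change was -0.18 ± 0.07 (SE; limma, adjusted p = 0.157). It was called lower after the GC and length correction (limma, -0.22, adjusted p = 0.0349) and without knockdown library 2 (limma, -0.29, adjusted p = 0.00252), and its value was -0.08 without knockdown library 1 (limma, adjusted p = 0.663, the highest of its alternatives). ZNF101, the highest of its cluster, stood at 2529 and 2690 against 2245 and 2408, a log2 fold change of -0.17 (limma, adjusted p = 0.144), and was called without knockdown library 2 (limma, adjusted p = 0.0388), while the highest of its alternatives was 0.634 without non-targeting library 2. In both genes the groups did not overlap. The largest fold among all tested members was that of ZNF154, named after its value was seen, with 7 and 14 reads under the non-targeting ASO and 20 and 20 under knockdown. Its log2 fold change of 1.07 had an interval of 0.21 to 1.93 (limma, adjusted p = 0.169).

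A set of GC-rich members with no KRAB pattern depended on single libraries. The set was picked after its values were seen, though ZNF787 was already named for its level per kilobase. ZNF787 stood at 3666 and 2999 normalized reads under the non-targeting ASO and 3348 and 2668 under knockdown. ZNF865 stood at 1957 and 1570 against 1773 and 1336, and ZNF628 at 754 and 667 against 714 and 488. ZNF296 stood at 610 and 432 against 493 and 355. In each of them the groups overlapped, and non-targeting library 2 was lower than knockdown library 1. Without knockdown library 1 limma called 7 members lower, which were ZNF628 (-0.54), ZNF865 (-0.39), ZNF787 (-0.31), ZNF296 (-0.53), ZNF579 (-0.40), ZNF524 (-0.45) and ZNF574 (-0.24), and 2 higher, ZNF808 (0.25) and ZNF227 (0.24). Without non-targeting library 2 it called ZNF296, ZNF865 and ZNF787 lower. These 7 members have transcripts of 60.9% to 71.1% GC. The GC and length correction was run on all 4 libraries only, where none of the 7 was called with or without it, so the part of GC content in the calls made with a library left out was not tested.

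The members were also split by protein features, strand, abundance and shared sequence, and no class held a called gene. These medians are descriptions without a test. Members with the KRAB pattern had a median log2 fold change of 0.05 over 185 tested genes and those without it -0.01 over 40. Their median GC content also differed, at 42.1% and 57.1%, and its part in this difference was not tested. Library medians were -0.03 and 0.03 against 0.02 and 0.08 under knockdown with the pattern. Without it they were 0.03 and -0.03 against 0.04 and -0.03, and the groups overlapped in both classes. By finger number the medians were 0.01 for 0 to 7 fingers (31 genes), 0.02 for 8 to 12 (90) and 0.06 for 13 or more (104). Plus-strand members stood at 0.03 (125 genes) and minus-strand members at 0.04 (100). By abundance the medians were 0.14 for a mean of 10 to 100 (25 genes), 0.05 for 100 to 500 (73) and 0.02 for 500 or more (127). In the lowest class only 5 of 25 intervals lay within 1.5-fold, while in the highest all 127 did. Without the 24 members that share at least 20% of their stretches the median was 0.04 over 203 genes, and over the 154 with no exon on the opposite strand it was also 0.04.

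The corepressors that KRAB zinc finger proteins use were also measured. Of 28 listed genes 27 were tested and 0 passed by limma, where 4.25% of all genes were called, so that a count of 0 in a list of this size is near the background. At an unadjusted p under 0.05 there were 2, against 17.2% of all genes. Their median log2 fold change was -0.02, with 18 below 0. TRIM28, the scaffold of the complex, stood at 25901 and 24711 normalized reads under the non-targeting ASO and 24028 and 22494 under knockdown, a log2 fold change of -0.12 (limma, adjusted p = 0.202). It was called lower without knockdown library 1 (limma, -0.17, adjusted p = 0.0391; 0.0391 to 0.806 over its alternatives) and stood at 0.02 after the GC and length correction. SETDB1 stood at 7063 and 6888 against 6799 and 7119, with overlapping groups and a log2 fold change of -0.00 whose sign changed with the scaling. The heterochromatin proteins CBX1, CBX3 and CBX5 had log2 fold changes of 0.00, 0.05 and 0.03 (limma, adjusted p = 0.999, 0.687 and 0.842).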

How the data were processed

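RNA-seq of 4 THP-1 libraries was used. The deposited values are gene counts that the authors divided by size factors, a normalized signal, with reads aligned by STAR 2.5.1b to GRCh38 and DESeq2 used, per the submitters' processing notes. Which program counted reads, on which annotation and with which strand setting, was not given in the sources used here. Whole reads were recovered by a single factor per library, each value within 0.00047 of a whole read.

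Genes with a mean of at least 10 were tested with limma 3.58.1 (in R 4.3.3, with a trended prior) on log2(value + 1), knockdown minus non-targeting, with Benjamini-Hochberg adjustment over all 19398 genes and a threshold of 0.05. Fold changes are on that scale and understate the change of low genes. The edgeR 4.0.16 and DESeq2 1.42.0 tests on whole reads were alternatives, as were other filters, pseudocounts, scalings, moderation, thresholds, left-out libraries, and library values adjusted by smooth curves of GC content and of exonic length. The limma test was checked on simulated counts that had edgeR's trended spread and no shift between libraries, with 12 false among 193 calls.

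Positions come from GENCODE 29 (GRCh38) and upstream sequences from RefSeq (GRCh38.p14). The NRF1 core was searched after a longer form of that motif had been tried. Finger and KRAB patterns were counted in translated GENCODE coding sequences, and not in RefSeq proteins as first planned. Genes named are the 8 largest positive and 8 largest negative differences (mean of at least 50, libraries apart), the 5 highest per kilobase, the highest of each cluster and 5 corepressors. Others are marked where they appear. The members and lists were chosen with earlier results of these data known. The knockdown libraries are numbered in the order of their columns.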

Additional observations from a re-analysis of the deposited data

How the results depend on the processing

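No paired analysis was possible because the knockdown columns are numbered 3 and 2 and share only 1 number with the non-targeting columns. Each group has 2 libraries, so a left-out library leaves 1 sample whose spread is taken from the remaining libraries. Depth limited the low members: with a mean of 10 to 100, 5 of 25 intervals lay within 1.5-fold and 20 within 2-fold.

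Over all genes, 660 were called lower and 165 higher. The lower count was 334 after quantile normalization, 293 with the same total, 0 without the trend, 380 by DESeq2 and 337 at a threshold of 0.01. The higher count was 291 with the same median, 0 without the trend, 67 by DESeq2, 46 at a threshold of 0.01 and 344 at 0.1. Leaving out a library gave 334 to 960 lower and 87 to 309 higher.

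Of the chromosome 19 ZNF genes 0 were called in either direction by limma. The GC and length correction gave 1 lower. The higher count was 2 with the same median and at a threshold of 0.1, and 1 with quantile normalization, the same total, robust moderation and the GC and length correction. Leaving out a library gave 0 to 7 lower and 0 to 2 higher, with the 7 found without knockdown library 1. Their median of 0.04 was 0.10 with the same total, where that of all genes was 0.05, and 0.01 to 0.07 with a library left out.

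Directions reversed for few genes, and the cause was not tested. After the GC and length correction the log2 fold changes were 0.0217 for TRIM28, 0.0302 for SETDB1, -0.0135 for CBX5, 0.0649 for ZNF787 and 0.0379 for ZNF865. SETDB1 was at 0.0134 with the same median, 0.0526 with quantile normalization, 0.0535 with the same total, 0.00577 by edgeR and 0.00507 by DESeq2. With a library left out SETDB1 ran from -0.0368 to 0.0294, CBX1 from -0.0570 to 0.0579, CBX5 from -0.00729 to 0.0595, ZNF787 from -0.314 to 0.0137, ZNF628 from -0.538 to 0.0108, ZNF865 from -0.392 to 0.0165, ZNF579 from -0.399 to 0.0269 and ZNF524 from -0.454 to 0.0419. Over 36 named genes 527 values kept their direction and side of the threshold, 23 passed it newly and 20 reversed.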
